A study of Mus musculus with 12 samples.

Results

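The genes described here are the glutathione, peroxiredoxin, thioredoxin, glutaredoxin and superoxide dismutase antioxidant genes of the mouse striatal synapse fraction, 39 of the 21492 genes in the deposited table. They were taken by gene symbol: protein-coding genes of the glutathione S-transferase families (Gsta, k, m, o, p, t and z, and Mgst) and of the Gpx, Prdx, Txn, Glrx and Sod families whose symbol goes on with a digit, with a value of 10 or more in at least 3 of 12 libraries. Of 42 matching symbols, 41 were protein-coding, and Gpx4-ps2, a pseudogene, was left out. Gstm3 and Mgst2 did not reach the level in any library (highest values 7.11 and 3.88), while Gstm2 and Gstp2, the members nearest the limit, reached it in 6 of 12. The members are 17 Gst genes, 2 Mgst, 6 Gpx, 6 Prdx, 2 Txn, 3 Glrx and 3 Sod genes.

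RNA was measured in striatal synaptosomes, pinched-off nerve endings that keep a piece of the postsynaptic side, and in the polyribosomes of those synaptosomes, that is, transcripts carrying several ribosomes. All mice were male C57BL/6J at P70 (postnatal day 70). The 4 groups were synaptosomal input RNA and synaptosomal polysome RNA of wild-type (WT) mice, and the same fractions of mice called Shank3 TG (TG, transgenic for the postsynaptic scaffold gene Shank3), with 3 libraries each. The labels do not give the promoter, copy number or founder of the transgene, nor whether the libraries of a group came from separate or pooled animals, so p-values measure only the spread between these libraries, which may in part be technical. Values are the authors' normalised estimated counts per gene, from total RNA libraries, and a log2 difference is of log2(value + 1). Where 3 values follow a group, they belong to the libraries numbered 1, 2 and 3.

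Estimated depth was 62.4 to 85.7 M reads in input and 77.1 to 103 M in polysome libraries. A single read was worth 1.26 to 1.80 normalised counts in input against 0.609 to 0.839 in polysomes, which makes low values in input the less precise. Shank3 itself had 2121, 4162 and 5858 in WT input and 5456, 17500 and 14107 in TG input, and 1501, 3702 and 5848 in WT polysome against 5012, 12626 and 12252 in TG polysome libraries, higher in the TG library of each number although the groups overlapped. All 12 markers of medium spiny neurons, the main neurons of the striatum, were measured, with summed values of 238467 to 591995 over the 12 libraries. Astrocyte markers summed to 242260 to 441115 and oligodendrocyte markers to 276014 to 479258, so RNA of glia was present in every library. In such bulk RNA, fewer cells of a type and less RNA per cell cannot be told apart.

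Superoxide dismutases turn superoxide into hydrogen peroxide, and peroxiredoxins and glutathione peroxidases then reduce peroxides to water or alcohols. Peroxiredoxins are returned to their reduced state mostly by thioredoxin, glutathione peroxidases and glutaredoxins by glutathione, and both routes draw on NADPH. Glutathione S-transferases couple glutathione to reactive compounds, including products of lipid and dopamine oxidation, which arise in the dopamine-rich striatum. Several glutathione peroxidases use the rare amino acid selenocysteine, which is written as TGA, elsewhere a stop codon, and is inserted by ribosomes with dedicated factors.

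The 6 measured glutathione peroxidases divide by that codon, and the division is shown because the polysome values below are given by it. Each sequence is 27 bases of the coding strand around the codon of the peroxidatic residue, 5′ to 3′, from the longest coding transcript in GENCODE M21 (GRCm38), with the codon in capitals.
Gpx1: gtcgcgtctctcTGAggcaccacgatc
Gpx3: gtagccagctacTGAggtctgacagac
Gpx4: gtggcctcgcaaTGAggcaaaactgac
Gpx6: gtggcatccttcTGTggcctgacagct
Gpx7: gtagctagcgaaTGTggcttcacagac
Gpx8: gtggctagtgacTGCcgcttcacagac
Gpx1 (codon 47 of 201, chr9:108339451-108339453, + strand), Gpx3 (codon 73 of 226, chr11:54907256-54907258, +) and Gpx4 (codon 129 of 253, chr10:80054737-80054739, +) have TGA there, and each has 1 in-frame TGA before its stop. Gpx6 (codon 73, chr13:21313777-21313779, +) and Gpx7 (codon 56, chr4:108403430-108403432, −) have the cysteine codon TGT, and Gpx8 (codon 79, chr13:113045661-113045663, −) has the cysteine codon TGC. The 3 cysteine genes have 0 in-frame TGA codons.

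The members covered a wide range of levels. Per kilobase of the median length of a gene's coding transcripts, the mean in WT input was highest for Gpx4, which reduces lipid peroxides in membranes, at 11987 normalised counts. Gstm5 (8840), Gstp1 (7792), Prdx5 (6881), Gpx1 (5495), Prdx2 (4558) and Sod1 (4378) followed. The neighbours Gstm5 and Gstp1, of similar coding transcript length, did not differ beyond their spread between libraries, with values per gene of 7160 ± 1962 and 6339 ± 1358 in WT input (mean ± SD, n = 3). The lowest were Gstm2 and Gstp2, at 10.3 and 9.74 per kilobase. The order depends on the length used: per kilobase of all exons of a gene, Gpx4 (6668), Gstm5 (5603) and Gstp1 (4095) still led, and Mgst3 (3682) came next. Of Gpx4's 31-base sequences, 38.9% also occur in other genes, nearly all in its pseudogene Gpx4-ps2, and 38.5% of those of Gstp1 occur in Gstp2, so these levels depend on how the authors' quantification shared such reads.

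Polysome RNA was compared with input RNA to ask which antioxidant transcripts stand higher or lower among ribosome-loaded synaptosomal RNA. In WT, 13 of 39 members were higher in polysome libraries and 0 lower (limma on all 12 libraries, adjusted p under 0.05), against 5.36% of 16962 genes higher and 8.59% lower. In TG, 14 of 39 were higher and 0 lower, against 8.19% and 9.86% of all genes. The members called in WT were 5 of 6 peroxiredoxins (Prdx2 to Prdx6), Txn1, all 3 superoxide dismutases, Mgst1, Mgst3, Gpx7 and Gstm4. In TG they were the same without Mgst1 and with Gsto1 and Gstp2, so 12 were shared, 92.3% of the WT and 85.7% of the TG list. Gstp2 met the level of 10 mainly in polysome libraries, so the filter itself favours its call and its place in the counts below. The median log2 difference over the 39 members was 0.46 in WT and 0.56 in TG, against 0.03 over all genes in each. The 2 genotypes have separate libraries but were fitted together with 1 estimate of the spread per gene, so the 2 lists are not independent. Fits of each genotype's libraries alone kept 19 of the WT and TG calls and lost 8. The share of the lists of all genes that overlaps is not given here. In the test of a difference between the genotypes (interaction, given below), 0 members passed.

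By numbered pairs, 24 of 39 members (61.5%) were higher in polysome than in input in 6 of 6 pairs, against 25.0% of all genes, and 0 members were lower in 6 of 6. All 3 polysome values lay above all 3 input values in 20 members in WT (17.7% of all genes) and in 24 in TG (17.6%). In both genotypes at once, 17 of 39 members did so, against 2036 of 16962 genes. The plot of paired differences shows these pairs gene by gene. The members higher in all 6 pairs were the 6 peroxiredoxins, the 3 superoxide dismutases, Txn1, Mgst1, Mgst3, Gpx7, Gpx8 and 10 Gst genes.

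**Figure D1:**
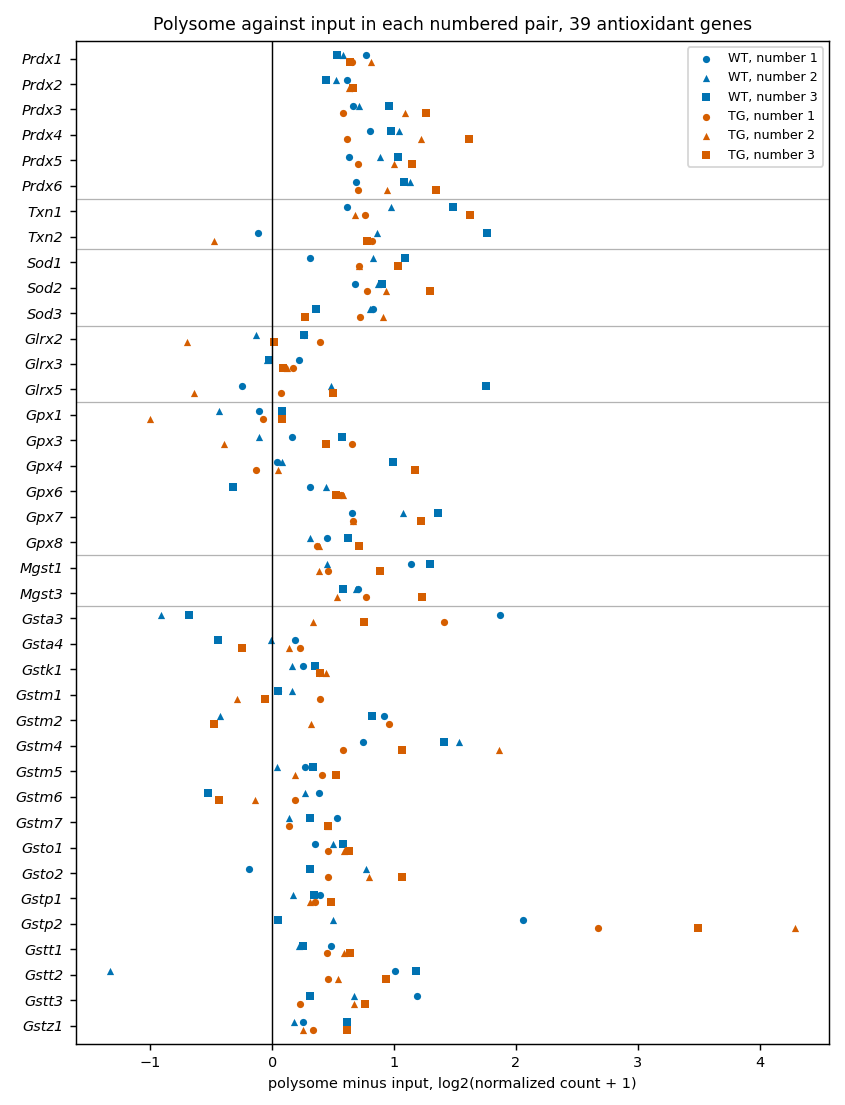
Difference between polysome and input library of the same number, as log2(normalised count + 1), on the horizontal axis for each of the 39 genes, grouped by family. Blue is WT, orange TG, and circle, triangle and square are numbers 1, 2 and 3. All points of Prdx1 to Prdx6, Sod1 to Sod3, Txn1, Mgst1 and Mgst3 lie right of 0, while Glrx2, Glrx5, Gpx1, Gpx3 and several Gst genes lie on each side of it.

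The counts rested in part on single libraries. For WT, the number of members called was 0 without WT input library 3 (0.753% of all genes higher), 7 without WT input library 2 (2.95%), 6 without WT polysome library 1 (2.88%), 3 without WT polysome library 2 (1.93%) and 6 without WT polysome library 3 (1.35%). For TG it was 6 without TG input library 3 (3.04%) and 8 without TG polysome library 1 (3.12%). With the replicate number within each genotype as a block, 16 members were higher in WT (13.9% of all genes) and 22 in TG (16.7%), and without the libraries of number 2 that block fit called 1 (0.390%) and 7 (2.52%). The direction of the called members was upward in each of these fits.

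Of the 6 peroxiredoxins, 5 passed in each genotype, and 2 in WT and 5 in TG with the length trend described below removed. Their summed value was 27105, 31801 and 22714 in WT input and 43448, 54548 and 39133 in WT polysome libraries, and 32462, 28005 and 23842 in TG input and 51441, 50968 and 47443 in TG polysome libraries. The groups did not overlap in either genotype. The median log2 difference of the 6 genes was 0.81 in WT and 0.96 in TG.

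Prdx1, an abundant cytosolic peroxiredoxin, had 5114, 8326 and 4906 in WT input and 8728, 12455 and 7105 in WT polysome libraries. Prdx1 had 6641, 7170 and 5391 in TG input and 10394, 12610 and 8395 in TG polysome libraries. Library 2 was the highest in each group, so the WT groups overlapped although every pair was higher in polysome. The log2 difference of 0.63 ± 0.25 (SE) in WT and 0.70 ± 0.25 in TG did not pass the test (adjusted p = 0.115 and 0.0739), and with the replicate block it passed (0.00611 and 0.00354).

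Prdx2, a peroxiredoxin prominent in neurons, had 6998, 7675 and 6453 in WT input and 10714, 11035 and 8730 in WT polysome libraries. In TG the values were 8143, 7077 and 6890 in input and 12822, 10950 and 10921 in polysome libraries. Every polysome value lay above every input value. It rose by 0.52 ± 0.15 in WT (adjusted p = 0.0377) and by 0.65 ± 0.15 in TG (adjusted p = 0.0135).

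Prdx3, the peroxiredoxin of the mitochondrial matrix, had 2012, 2439 and 1495 in WT input and 3188, 3998 and 2913 in WT polysome libraries. TG input libraries had 2506, 1694 and 1399, and TG polysome libraries 3748, 3606 and 3354. The groups were apart in each genotype, and the rise was 0.78 ± 0.23 in WT (adjusted p = 0.0407) and 0.98 ± 0.23 in TG (adjusted p = 0.0142).

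Prdx4, which works in the endoplasmic reticulum and is secreted by some cells, had 1441, 984 and 1140 in WT input and 2510, 2027 and 2235 in WT polysome libraries. Prdx4 had 1501, 788 and 993 in TG input and 2295, 1833 and 3028 in TG polysome libraries. It had the largest rise of the family in TG, 1.15 ± 0.25 (adjusted p = 0.0105), and rose by 0.94 ± 0.25 in WT (adjusted p = 0.0278).

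Prdx5, found in mitochondria, peroxisomes and cytosol, had 5480, 5805 and 4301 in WT input and 8510, 10693 and 8797 in WT polysome libraries. In TG the values were 6430, 4438 and 4792 in input and 10421, 8879 and 10636 in polysome libraries. The groups did not overlap, and the rise was 0.85 ± 0.18 in WT (adjusted p = 0.0123) and 0.95 ± 0.18 in TG (adjusted p = 0.00663).

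Prdx6, which relies on glutathione rather than thioredoxin and is prominent in astrocytes, had 6061, 6572 and 4420 in WT input and 9797, 14340 and 9353 in WT polysome libraries. TG input libraries had 7241, 6838 and 4376, and TG polysome libraries 11761, 13091 and 11109. Input library 3 was the lowest in each genotype. The rise was 0.97 ± 0.23 in WT (adjusted p = 0.0189) and 0.99 ± 0.23 in TG (adjusted p = 0.0137).

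Thioredoxins return peroxiredoxins to their reduced state. Txn1, the cytosolic thioredoxin, had 1239, 1189 and 770 in WT input and 1889, 2324 and 2152 in WT polysome libraries. Txn1 had 1241, 1150 and 753 in TG input and 2105, 1838 and 2319 in TG polysome libraries. All polysome values lay above all input values, with input library 3 the lowest in each genotype. Txn1 was 2.03-fold higher on the log2(value + 1) scale in each genotype (1.02 ± 0.22, adjusted p = 0.0139 in WT and 0.0111 in TG). Txn2, the mitochondrial thioredoxin, had 621, 352 and 218 in WT input and 569, 639 and 740 in WT polysome libraries, with 324, 556 and 317 in TG input and 575, 397 and 546 in TG polysome libraries. These groups overlapped, and the difference of 0.83 ± 0.33 in WT and 0.37 ± 0.33 in TG did not pass (adjusted p = 0.114 and 0.476). The difference between Txn1 and Txn2 was not tested.

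All 3 superoxide dismutases rose in each genotype. Sod1, the cytosolic copper and zinc enzyme, had 3445, 2768 and 2205 in WT input and 4257, 4908 and 4682 in WT polysome libraries. In TG the values were 2954, 2989 and 2169 in input and 4824, 4901 and 4430 in polysome libraries. The groups were apart, and the rise was 0.74 ± 0.18 in WT (adjusted p = 0.0210) and 0.82 ± 0.18 in TG (adjusted p = 0.0117).

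Sod2, the mitochondrial manganese enzyme, had 9213, 9832 and 7443 in WT input and 14753, 18031 and 13858 in WT polysome libraries. TG input libraries had 10003, 8582 and 6462, and TG polysome libraries 17163, 16323 and 15829. Every polysome value exceeded every input value. The rise was 0.82 ± 0.19 in WT (adjusted p = 0.0153) and 1.00 ± 0.19 in TG (adjusted p = 0.00584). Of its 31-base sequences, 26.6% are shared with other annotated genes.

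Sod3, the secreted extracellular enzyme, was much less abundant, with 244, 252 and 236 in WT input and 434, 438 and 303 in WT polysome libraries. Sod3 had 255, 239 and 290 in TG input and 419, 448 and 351 in TG polysome libraries. Polysome library 3 was the lowest of its group in each genotype, yet above all input values. The rise was 0.66 ± 0.19 in WT (adjusted p = 0.0352) and 0.63 ± 0.19 in TG (adjusted p = 0.0354).

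**Figure D2:**
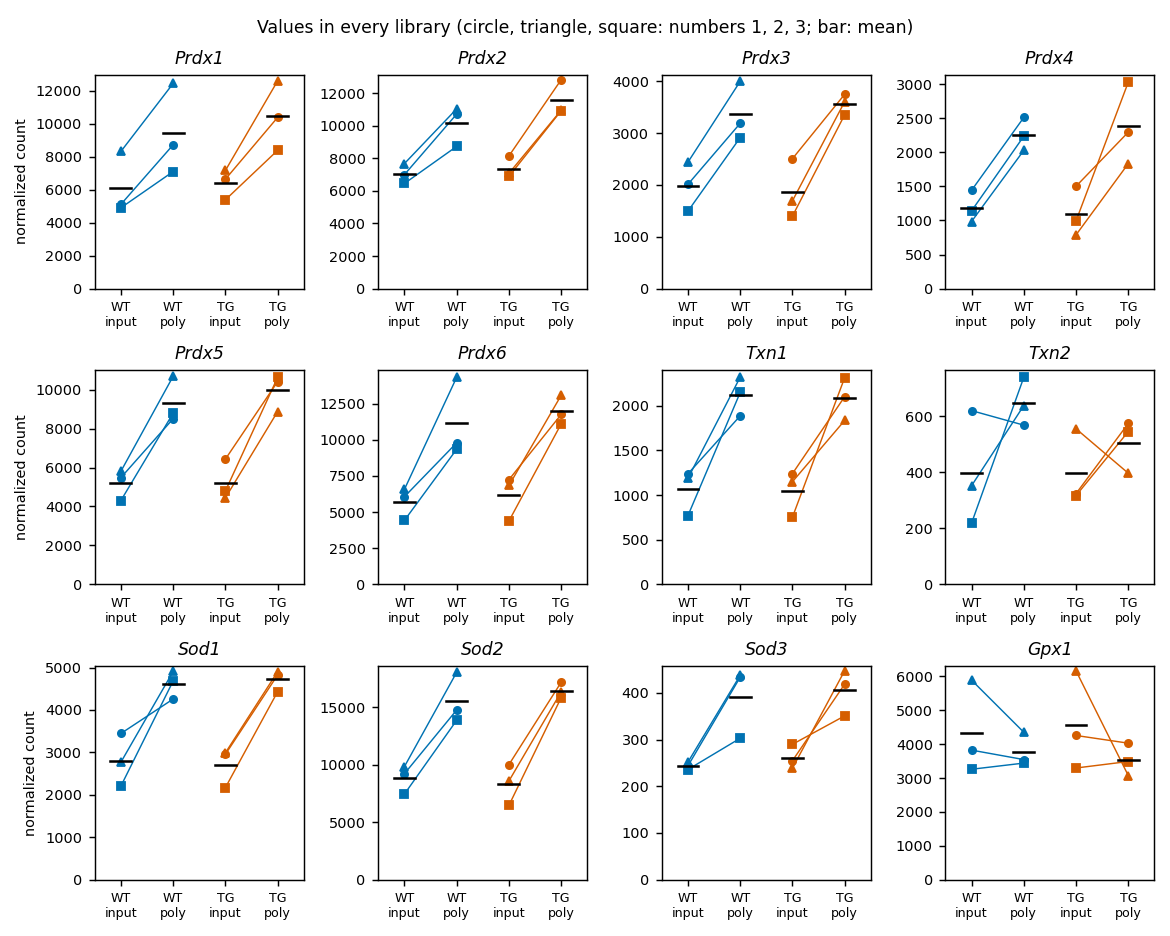
Normalised count (vertical axis, from 0) of 12 members in each library, with WT in blue and TG in orange, lines joining input and polysome libraries of the same number, and bars at the group means. The peroxiredoxins, Txn1 and the Sod genes rise along every line, for example Sod1 from 2169 to 3445 in input to 4257 to 4908 in polysome libraries, while Txn2 and Gpx1 have lines in each direction.

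Glutaredoxins, which remove glutathione from proteins and, for Glrx3 and Glrx5, serve iron-sulphur clusters, gave 0 calls among 3 genes in each genotype. Glrx3, the highest of the family, had 3073, 3708 and 3377 in WT input and 3578, 3602 and 3312 in WT polysome libraries, with 3304, 3348 and 3274 in TG input and 3705, 3641 and 3495 in TG polysome libraries. Its difference was 0.05 ± 0.13 in WT (adjusted p = 0.838) and 0.13 ± 0.13 in TG (adjusted p = 0.528). The mitochondrial Glrx2 differed by 0.13 ± 0.21 and -0.10 ± 0.21, and the mitochondrial Glrx5 by 0.66 ± 0.37 in WT, where the pairs ran from -0.25 to 1.75, and by -0.02 ± 0.37 in TG. Among the 6 mitochondrial members (Prdx3, Sod2, Txn2, Glrx2, Glrx5 and Gstk1), 2 were called in each genotype, Prdx3 and Sod2. For comparison, 13 of all 39 members were called higher in WT and 14 in TG, and 5.36% and 8.19% of all genes. Prdx5, which is also found outside mitochondria and was called in each genotype, is not counted among the 6. With the block, Gstk1 was called in TG as well (0.40 ± 0.24, adjusted p = 0.260 without and 0.0369 with it).

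Among glutathione peroxidases, 0 of 3 selenocysteine enzymes were called in either genotype, and of the 3 cysteine enzymes Gpx7 was in each. Of all genes, 5.36% were called higher in WT and 8.19% in TG, so counts of 3 genes cannot set the enzymes apart. Gpx1, the abundant cytosolic enzyme, had 3824, 5891 and 3259 in WT input and 3545, 4352 and 3441 in WT polysome libraries, with 4256, 6164 and 3296 in TG input and 4029, 3073 and 3488 in TG polysome libraries. It was the member with the lowest difference in each genotype, -0.16 ± 0.25 in WT (adjusted p = 0.727) and -0.33 ± 0.25 in TG (adjusted p = 0.388), and input library 2 stood above the other libraries in each genotype. Gpx4 had 13355, 12693 and 8439 in WT input and 13752, 13392 and 16796 in WT polysome libraries, and 15990, 9067 and 7125 in TG input and 14635, 9387 and 15997 in TG polysome libraries. Its difference was 0.37 ± 0.30 in WT and 0.36 ± 0.30 in TG (adjusted p = 0.435 and 0.428), carried by the pair of number 3, at 0.99 and 1.17, while the other 4 pairs lay between -0.13 and 0.08. Gpx3, the secreted enzyme of blood plasma, differed by 0.21 ± 0.63 and 0.23 ± 0.63 (adjusted p = 0.864 and 0.839).

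Gpx7, an enzyme of the endoplasmic reticulum that passes oxidising power to protein folding, had 173, 120 and 119 in WT input and 272, 253 and 306 in WT polysome libraries. In TG the values were 168, 133 and 139 in input and 266, 211 and 325 in polysome libraries. The groups did not overlap. It rose by 1.03 ± 0.22 in WT (2.04-fold, adjusted p = 0.0127) and by 0.85 ± 0.22 in TG (1.80-fold, adjusted p = 0.0219). With the length trend described below removed, it passed in WT and not in TG (limma, adjusted p = 0.0345 and 0.0783). Gpx8, its relative in the same compartment, differed by 0.46 ± 0.21 and 0.49 ± 0.21 with no overlap of groups, and did not pass (adjusted p = 0.155 and 0.122), while with the block it passed in TG (0.0406) and not in WT (0.0532). Gpx6, a peroxidase known from olfactory tissue, differed by 0.14 ± 0.44 in WT and 0.55 ± 0.44 in TG (adjusted p = 0.866 and 0.417, and 0.0345 with the block in TG). The difference between selenocysteine and cysteine enzymes was not tested.

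The microsomal transferases, membrane enzymes that also reduce lipid peroxides, were both higher in every pair. Mgst3 had 4017, 3872 and 4230 in WT input and 6526, 6243 and 6312 in WT polysome libraries. TG input libraries had 4295, 3462 and 3512, and TG polysome libraries 7316, 4996 and 8235. It rose by 0.66 ± 0.18 in WT (adjusted p = 0.0312) and by 0.84 ± 0.18 in TG (adjusted p = 0.00991), with an SD of 147 in WT and 1670 in TG polysome libraries. Mgst1 had 430, 829 and 361 in WT input and 949, 1132 and 886 in WT polysome libraries, with 595, 644 and 443 in TG input and 820, 836 and 813 in TG polysome libraries. The groups did not overlap, and the rise of 0.96 ± 0.26 passed in WT (adjusted p = 0.0318), while 0.57 ± 0.26 in TG did not (adjusted p = 0.154, and 0.0384 with the block). The 5 members placed in the endoplasmic reticulum (Prdx4, Gpx7, Gpx8, Mgst1 and Mgst3) had all polysome values above all input values in each genotype. So did 17 of all 39 members, among them the 3 superoxide dismutases, and 2036 of 16962 genes. With the length trend removed, 1 of the 5 was called in WT and 2 in TG. A difference between compartments was not tested.

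Of the 17 cytosolic and kappa-class glutathione S-transferases, 1 was called in WT and 3 in TG, where 5.36% and 8.19% of all genes were called higher. Differences were positive in 16 of 17 in each genotype, with medians of 0.30 and 0.40. With the length trend removed, 0 and 1 were called, 12 and 13 were positive, and the medians were 0.10 and 0.27. Gstm5, the most abundant, had 5820, 9413 and 6248 in WT input and 7037, 9669 and 7862 in WT polysome libraries, and 6784, 7659 and 6157 in TG input and 8989, 8756 and 8836 in TG polysome libraries. Its difference of 0.21 ± 0.19 in WT and 0.37 ± 0.19 in TG did not pass (adjusted p = 0.494 and 0.198, and 0.0409 with the block in TG). Gsto1, which also reduces oxidised ascorbate, had 977, 927 and 788 in WT input and 1243, 1312 and 1181 in WT polysome libraries. Gsto1 had 1026, 838 and 713 in TG input and 1412, 1259 and 1101 in TG polysome libraries. The groups were apart in each genotype, and the difference was 0.48 ± 0.17 in WT (adjusted p = 0.0786, and 0.0180 with the block) and 0.56 ± 0.17 in TG (adjusted p = 0.0390).

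Gstm4, a mu-class enzyme at low level, had 87.2, 34.9 and 54.5 in WT input and 147, 103 and 146 in WT polysome libraries. In TG the values were 73.3, 32.0 and 71.7 in input and 110, 119 and 150 in polysome libraries. It rose by 1.23 ± 0.38 in WT (adjusted p = 0.0471) and by 1.17 ± 0.38 in TG (adjusted p = 0.0487). These were close to the threshold, and the call held in 4 and 3 of the 12 fits that left out 1 library.

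Gstp2, the near-copy of the pi-class gene Gstp1, had 1.26, 12.4 and 9.64 in WT input and 8.44, 17.9 and 10 in WT polysome libraries. TG input libraries had 1.25, 0 and 0, and TG polysome libraries 13.3, 18.5 and 10.3. The TG input values amount to about 1 read in all, so no fold is given. The fitted difference in TG was 3.48 ± 0.72 (adjusted p = 0.00893), and 1.80 with 5 in place of 1 added before the logarithm. The gene shares 60.3% of its 31-base sequences with other genes, 54.8% with Gstp1, so its value is uncertain. WT input library 2 was its only input library at 10 or more. It thus became a member mainly through its polysome values, and its call is not independent of that filter. Gstp1 itself, with 5599, 7906 and 5512 in WT input and 7317, 8896 and 6961 in WT polysome libraries, differed by 0.30 ± 0.19 in WT and 0.38 ± 0.19 in TG (adjusted p = 0.317 and 0.186, and 0.0286 with the block in TG). The other Gst genes had differences from -0.09 (Gsta4) to 0.73 (Gstt3) in WT and from -0.13 (Gstm6) to 0.83 (Gsta3) in TG, and none passed. With the block, Gstt3 passed in WT (adjusted p = 0.0391) and Gstt1 in TG (0.0171).

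Polysome against input also differed with exonic length, that of all exons of a gene, over all genes, and most members are short by it. Coding transcripts can be much shorter than this. Sod2 has 10008 exonic bases and a median coding transcript of 5861, Prdx6 4804 and 1673, and Sod1 3970 and 641. The values below thus depend on the length used, and a trend on transcript length was not tested. In the quartile of genes with the shortest exonic length (141 to 2519 bases), the median log2 difference over all genes was 0.29 in WT, and 9.39% of genes were called higher. In the longest quartile (6475 to 123179 bases) they were -0.28 and 2.24%. Of the 39 members, 25 fell in the shortest quartile, with a median of 0.37 and 8 called. Prdx6 (4804 bases) and Sod2 (10008 bases), the called members with the longest exonic length, lay far above the medians of their quartiles in the plot of difference against length. In TG the shortest quartile had a median of 0.29 and 13.2% called over all genes, and its 25 members had a median of 0.55 with 9 called. With the trend on exonic length removed from each library, 7 members were called in WT (4.29% of all genes) and 10 in TG (6.69%), and the median over members was 0.32 and 0.35. The 7 in WT were Prdx5, Prdx6, Txn1, Sod1, Sod2, Sod3 and Gpx7, and the 10 in TG were Prdx2 to Prdx6, Txn1, Sod1, Sod2, Mgst3 and Gstp2. Sod2 was then at 1.12 in WT and 1.31 in TG (adjusted p = 0.00774 and 0.00309), and Prdx6 at 1.00 and 1.01 (adjusted p = 0.0195 and 0.0154).

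**Figure D3:**
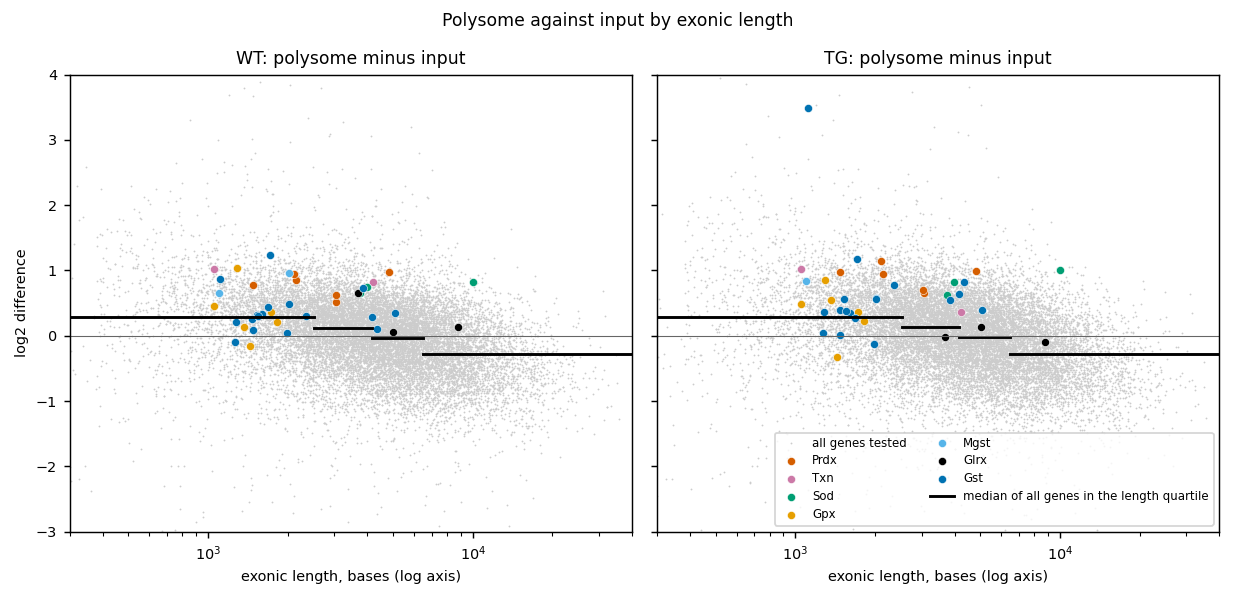
Log2 difference of polysome and input (vertical axis, cropped at -3 and 4) against exonic length in bases (log axis) in WT (left) and TG (right), for all genes tested (grey) and the 39 members (coloured by family). Black lines are the medians of all genes in each quartile of length, falling from 0.29 to -0.28 in each genotype, and the peroxiredoxins, superoxide dismutases and Txn1 lie above them.

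Markers of other cell types were read beside these values. Of all genes, 5.36% were called higher and 8.59% lower in WT, and 8.19% and 9.86% in TG. Of 10 astrocyte markers, 0 were called higher in polysome libraries and 2 lower (Aldh1l1 and Slc1a3) in each genotype, and their summed value was 404948 to 420876 in WT input and 242260 to 377173 in WT polysome libraries. Of 10 oligodendrocyte markers 2 were higher (Mog and Opalin) in each genotype, with sums of 276014 to 400859 in WT input and 281072 to 406720 in WT polysome libraries. Of 10 microglial markers 0 were called in WT (sums of 51014 to 56559 in polysome and 42958 to 55468 in input libraries) and 3 higher in TG (C1qa, C1qc and Tmem119). Medium spiny neuron markers gave 0 of 12 calls in each genotype. Rarres2 of 9 choroid and ependymal markers was higher in each, and Cldn5 of 10 endothelial and mural and Hbb-bt of 5 tested blood markers passed in TG and not in WT, with 0 calls in the test of the difference between genotypes. The median difference of the microglial markers was 0.42 in WT and 0.50 in TG, that of the astrocyte markers -0.24 and -0.27. With the block, 5 microglial markers were higher in WT and 6 in TG, 1 and 2 astrocyte markers (2 and 3 lower), 4 and 4 oligodendrocyte markers (1 and 2 lower), and 3 and 5 medium spiny neuron markers (3 and 3 lower). The block also called 2 choroid and ependymal markers higher in each genotype, 1 and 2 endothelial and mural, and 1 and 2 blood markers. It called 13.9% of all genes higher and 15.9% lower in WT, and 16.7% and 16.6% in TG. In each group, 0 markers of these lists were under 1 in all 3 libraries. The part of these cells in the members' differences was not tested.

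The other genes of the pathway gave calls in each direction, and their list medians lay nearer to 0 than the 0.46 and 0.56 of the members. These medians are without removal of the length trend, which lowered those of the members to 0.32 and 0.35. Medians of the lists with the trend removed are not given here, and the contrast was not tested. Among 15 genes of glutathione synthesis, breakdown and precursor transport, 0 were higher and 1 lower in WT, and 1 higher and 2 lower in TG, with median differences of -0.15 and -0.27. The shares of all genes were 5.36% higher and 8.59% lower in WT, and 8.19% and 9.86% in TG. Slc1a1, a neuronal transporter that brings in glutamate and cysteine, went from 15659 ± 1250 in input to 9878 ± 2335 in polysome libraries of WT mice (mean ± SD, n = 3), a fall of -0.69 ± 0.19 (adjusted p = 0.0325). Chac2, which degrades glutathione, was the gene higher in TG (0.83 ± 0.22, adjusted p = 0.0244), and Slc3a2, the heavy chain of the cystine transporter, the other lower one (-0.78 ± 0.22, adjusted p = 0.0306). With the block, 1 was higher and 3 lower in WT and 2 and 4 in TG, against 13.9% higher and 15.9% lower of all genes in WT and 16.7% and 16.6% in TG.

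Among 19 reductases, reactivating enzymes and genes of NADPH supply, 0 were higher and 1 lower in WT, and 1 higher (Nadk2) and 2 lower (Pgd and Tkt) in TG, with medians of -0.01 and 0.10. Tkt, the transketolase of the pentose phosphate pathway, had 9946 ± 1036 in WT input and 5570 ± 1198 in WT polysome libraries (-0.86 ± 0.20, adjusted p = 0.0185). The block gave 6 higher and 3 lower in WT and 5 and 2 in TG. Txnrd1 and Txnrd2, the reductases of the thioredoxins described above, were at 0.42 ± 0.21 and 0.79 ± 0.31 in WT (adjusted p = 0.205 and 0.102, and 0.0408 and 0.0270 with the block), and they were chosen here after their values were seen. Txnrd3, another thioredoxin reductase of the list, went the other way. It was at -0.79 ± 0.25 in WT (limma, adjusted p = 0.0558, and 0.0253 with the block) and at -0.54 ± 0.25 in TG (0.162 and 0.0854).

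Of 28 related thiol and antioxidant proteins, 5 were higher and 3 lower in WT, and 6 and 3 in TG, with medians of 0.11 and 0.26. Txndc15, a thioredoxin-domain protein, had the largest rise in WT among the called genes, from 4800 ± 164 in input to 7743 ± 713 in polysome libraries (0.69 ± 0.16, adjusted p = 0.0188). The other risers were Nxn, Park7, Txndc5 and Txndc12, joined in TG by Ccs, the copper chaperone of Sod1 (0.81 ± 0.26, adjusted p = 0.0442). Fth1, the ferritin heavy chain that stores iron, had the largest fall among them, from 19221 ± 5093 to 7911 ± 1002 (-1.25 ± 0.23, adjusted p = 0.00704), and Ftl1, the ferritin light chain, and Cat, catalase, fell as well (-0.97 ± 0.25 and -0.81 ± 0.22). The block raised the number higher in WT to 9, and gave 3 lower there and 8 and 4 in TG.

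Of 11 regulators of the NRF2 pathway, which drives many antioxidant genes, 0 were higher, and 1 was lower in WT and 3 in TG, with medians of 0.03 and 0.13. Nfe2l2, which encodes NRF2, had 608 ± 84.1 in WT input and 329 ± 41.9 in WT polysome libraries (-0.88 ± 0.25, adjusted p = 0.0340), and Cul3 and Sqstm1 were the others in TG. The block called 3 lower in each genotype. Of 17 genes of selenocysteine insertion and other selenoproteins, 3 were higher and 2 lower in WT and 3 and 3 in TG, with medians of 0.28 and 0.13. Selenow, a small selenoprotein abundant in brain, fell from 10504 ± 1506 to 4274 ± 368 in WT (-1.29 ± 0.19, adjusted p = 0.00211), and Selenom, a selenoprotein of the endoplasmic reticulum, rose from 1449 ± 470 to 2889 ± 524 (1.03 ± 0.28, adjusted p = 0.0301). Selenok had the largest rise among those called in TG (0.91 ± 0.23, adjusted p = 0.0187). The block gave 6 higher and 4 lower in WT and 7 and 4 in TG.

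The promoters of the members were also searched for the core of the antioxidant response element, the site NRF2 binds with small MAF proteins. In RefSeq promoters of GRCm38.p6, from 250 bases before to 50 after the start site, TGACNNNGC was found on either strand in 6 of 35 matched members (17.1%) and in 3781 of 27025 genes (14.0%). The 6 were Gsta3, Gstm5, Gstm7, Mgst1, Prdx1 and Sod1. In all 6 pairs, 61.5% of the 39 members were higher in polysome libraries, and of the 6 with a match all but Gsta3 were. The 3 of the 6 matches that lie on the opposite strand are shown, read along the gene's strand, with the matched letters in capitals.
Prdx1: gggaaagcGCTGAGTCAtcccccgt
Sod1: caaggtggGCGTGGTCAgactcagg
Mgst1: ggggcttgGCACGGTCAggaggcgg
They lie at chr4:116685458-116685482, chr16:90220698-90220722 and chr6:138140463-138140487 (all + strand), with the first matched base at -133, -56 and -56 from the RefSeq start site. A match describes letters only, binding was not measured, and a link between matches and the polysome differences was not tested.

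The transgene comparison asked whether antioxidant transcripts differ between WT and TG synaptosomes. In input, 0 of 37 tested members passed (limma, 6 libraries; Gstm2 and Gstp2 fell under the filter), against 0% of 16341 genes, and 0 members and 80 genes had an unadjusted p under 0.05. In polysome libraries 0 of 39 members passed, against 0% of 16312 genes, with 0 members and 53 genes under an unadjusted 0.05. Differences of members ran from -0.94 to 0.42 in input and from -0.37 to 0.41 in polysome libraries, with medians of -0.00 and 0.03. In simulated data of this design, 27 of 100 log2 changes of 1 were recovered in input and 28 of 100 in polysome libraries, and 64 and 72 of 100 log2 changes of 2. The changed genes were drawn at random from all genes tested, so recovery among the members was not measured. The simulated noise was independent between libraries and left out the likeness of libraries of the same number. Smaller changes were not simulated.

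The member with the smallest p in input was Gsta3, an alpha-class transferase, with 30.2, 41.1 and 24.4 in WT and 20.8, 14.3 and 13.2 in TG. The groups did not overlap, and the difference was -0.94 ± 0.42 (adjusted p = 1.00, limma). In polysome libraries it had 113, 21.4 and 14.9 in WT and 57.1, 18.2 and 22.9 in TG, which overlapped (-0.20 ± 0.75). In polysome libraries the smallest p was that of Txn2, with the values given above, at -0.37 ± 0.20 (adjusted p = 1.00, limma). The peroxiredoxins ranged from -0.15 to 0.10 in input and, in polysome libraries, from 0.05 to 0.19, and their median over the genes was 0.24, -0.27 and 0.04 in the input pairs and 0.26, -0.14 and 0.26 in the polysome pairs, so pair 2 ran against the others in each fraction.

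**Figure D4:**
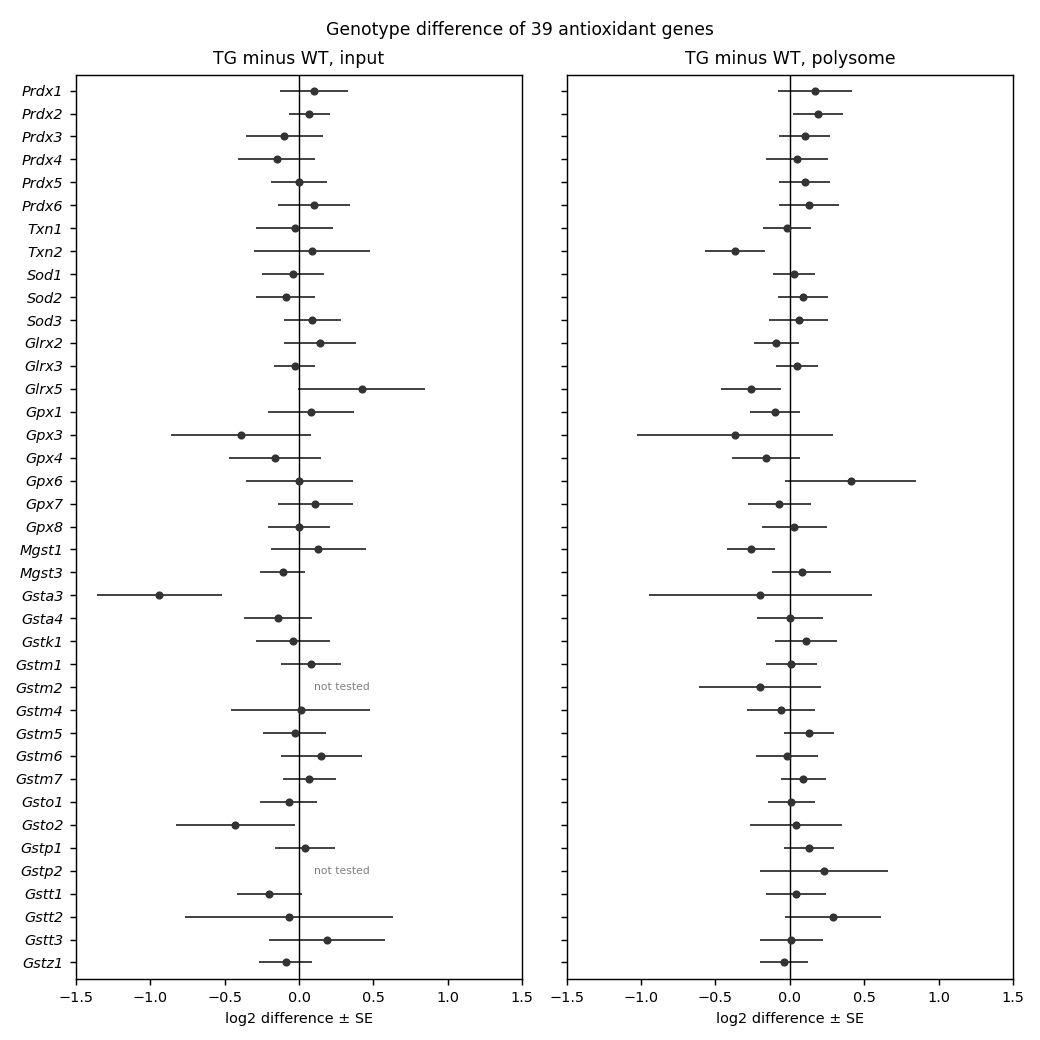
Log2 difference between TG and WT with its standard error (bars) for each member in input (left) and polysome libraries (right), 3 libraries a group. Most points lie within 0.3 of 0, and Gsta3 in input, at -0.94, is the farthest from it. Gstm2 and Gstp2 were not tested in input.

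The difference of the genotype effect between polysome and input passed in 0 of 39 members, against 0% of 16962 genes, and 1 member and 94 genes had an unadjusted p under 0.05. That member was Gstp2, at 2.61 ± 1.02 (adjusted p = 1.00, limma), from the low values given above. Next came Glrx5, at -0.68 ± 0.52 (adjusted p = 1.00). Mgst1, called in WT and not in TG, differed by -0.39 ± 0.37 (adjusted p = 1.00). The median over the 39 members was 0.07. With the replicate block, 0 members passed in any of these 3 comparisons. An unadjusted p under 0.05 was then found for 0 members and 445 genes in input, for 2 members and 438 genes in polysome libraries, and for 1 member, Gstp2, and 209 genes in the difference of the genotype effect. The 2 were Txn2 and Gpx6, which is named after its values were seen. Gpx6 in polysome libraries was 0.41 ± 0.14 with the block, higher in TG in 3 of 3 pairs (0.41, 0.19 and 0.63), with an adjusted p of 1.00 (limma).

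Libraries of the same number resembled each other across groups, and some members marked the number more than the genotype. Gpx3 was the highest in number 3 and the lowest in number 2 in all 4 groups, with 397, 399, 590 and 541 in number 3 against 181, 119, 168 and 89.8 in number 2 (WT input, TG input, WT polysome and TG polysome). Gpx6, Gstp1, Mgst1 and Prdx1 were the highest in number 2 in all 4 groups, and Gpx6 stood 0.70 above its group means there. Prdx1, Prdx2, Prdx3, Prdx6, Sod2, Gstk1, Gsto1, Gstp1 and Mgst1 were the lowest in number 3 in all 4 groups, and Prdx4, Mgst3 and Gstt1 the lowest in number 2. Markers of medium spiny neurons averaged 0.65 above the group means in number 2, where cortical neuron markers averaged -0.46, while summed choroid and ependymal markers ranged from 997.2 to 34544 over the 12 libraries. What a number stands for is not given in the labels, and the part of tissue makeup in these members' values was not tested.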

How the data were processed

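The deposited table holds a normalised signal per gene, the authors' estimated counts after their own scaling, for 12 libraries. Per the submitters' processing notes, Salmon 1.1.0, R 3.6.2 and DESeq2 1.26.0 were used with GRCm38, and per the labels' protocols the libraries came from a stranded total RNA kit. Neither the annotation nor the scaling model is given in the sources used here. Values are fractional, with 32.6% to 46.0% of low values within 0.1 of a whole read, so whole reads could not be had and count tests were not used. Comparisons were made on log2(value + 1) with limma 3.58.1 (R 4.3.3, eBayes with a variance trend) over genes at 10 or more in at least 3 fitted libraries. Benjamini-Hochberg adjustment ran over all genes tested (threshold 0.05). Genotype was compared within a fraction (6 libraries), and fractions and the interaction in 1 fit of 12 libraries. Symbols, lengths and shared 31-base sequences came from GENCODE M21, which matched 21465 of 21492 genes.

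Libraries carry the numbers 1 to 3 in each group. Deviations from group means correlated at 0.24 to 0.55 in all 18 pairs that share a number, and at 0.28 to 0.45 in the 6 of these within a genotype. In pairs that do not share a number they were at -0.41 to -0.00, a range that removing the means of 3 libraries itself lowers. The values show that a number is shared across groups, not that an input and a polysome library came from 1 sample. The numbers were taken to pair the libraries, and the paired counts and the block rest on that. Fits with the replicate number as a block were run beside the main ones.

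The members and lists were chosen with earlier results of these data known. Values by library are given for members called in polysome against input, the most abundant member of each family and the member with the smallest p in each other comparison. From each list come the called genes with the largest changes. The scripts were tested on simulated data with 200 changed genes. Alternatives tried were a pseudocount of 5, a filter at 50 or none, TMM scaling, eBayes without the trend, a different set of libraries in the fit, the block, removal of the trend on exonic length, genes with over 50% shared sequence left out, and each library left out. Prxl2a and Prxl2b of the lists had no matching symbol. The calls of the cortical neuron markers are not reported here.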

Additional observations from a re-analysis of the deposited data

Results flagged for a closer look

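Gstp2 was singled out because the signs of its TG minus WT differences were opposite in the 2 fractions. The pairs were -0.01, -3.74 and -3.41 in input (log2 scale) and 0.60, 0.04 and 0.03 in polysome libraries. The input pair of number 1 was 1.26 in WT and 1.25 in TG, about 1 read in each, so it holds no difference in reads. The polysome pairs of numbers 2 and 3 (17.9 and 18.5, 10 and 10.3) differed by about 1 read or less. A pattern held by every pair is therefore not shown. The difference between these effects was 2.61 ± 1.02 (limma, adjusted p = 1.00), and it was 1.29 with 5 in place of 1 added before the logarithm. The values are few reads, and 54.8% of the gene's 31-base sequences occur in Gstp1. Groups of 3 libraries were not examined for single outlying libraries.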

How the results depend on the processing

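The count of members called in WT polysome against input was 13. It was 7 with the trend on exonic length removed, 1 with the replicate block without the libraries of number 2, and 0 to 13 when each library was left out in turn. The TG count of 14 was 22 with the replicate block, 7 with that block without number 2, and 6 to 14 when each library was left out. The cause of these shifts was not tested, and leaving libraries out also leaves fewer residual degrees of freedom. TMM scaling and a pseudocount of 5 left the counts at 13 and 14. Over all genes, 2367 were called in WT and 5052 with the replicate block, and 3062 in TG, where the block gave 5638 and a fit of the 6 TG libraries alone 1700. In the genotype comparisons 0 members passed under each alternative run, and in polysome libraries the replicate block called 1 gene of 16312, which was no member. Without that block 0 did.

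Some differences that were not called changed sign, and with the length trend removed the members below 0 went from 2 to 8 in WT and from 4 to 7 in TG. Glrx3 in WT was -0.04 with the replicate block without number 1 and -0.02 to 0.12 when each library was left out, Gstm5 in WT was -0.10 with the length trend removed, and Gpx4 in TG was -0.04 with the replicate block without number 3. Of the values of the called members under the other alternatives, 271 stayed on their side of the threshold and 51 did not, and with 1 library left out 235 did and 89 did not, all with their direction kept. Low members are limited by depth: a value of 10 in input rests on fewer than 10 reads.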
